A study of Mus musculus with 6 samples.

Results

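The 10 genes described here are markers of Kupffer cells, the resident macrophages of the liver, and of macrophages in general: Cd5l, Clec4f, Vsig4, Marco, C1qa, C1qb, C1qc, Csf1r, Adgre1 and Lyz2. They were chosen by symbol as known markers, but with earlier results of these data known. All 10 were found among the 24411 gene symbols of the count table. RNA-seq had been performed on livers taken on postnatal day 19 from 3 wild-type (p62+/+) and 3 knock-in (p62S351E/+) animals. The p62S351E/+ mice carry a single Sqstm1 allele, made by prime editing in embryonic stem cells of C57BL/6N origin, in which Ser351 of p62 is replaced by Glu to mimic phosphorylation, and the other allele is wild type. The knock-in is in the germline and not limited to a cell type, the heterozygotes descend from a single chimeric male by in vitro fertilization, and neither group received a treatment. The study describes poor growth and malnutrition of these heterozygotes, so the genotype is compared in mice that also differ in condition.

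Kupffer cells line the sinusoids of the liver and remove particles, bacteria, old erythrocytes and modified lipoproteins from portal blood. They depend on the receptor for colony-stimulating factor 1, encoded by Csf1r, as other macrophages do. Of the 10 genes, Cd5l, Clec4f, Vsig4 and Marco are largely restricted to Kupffer cells among the cells of the liver, whereas C1qa, C1qb, C1qc, Csf1r, Adgre1 and Lyz2 are shared with macrophages of other tissues, and several of these with microglia of the brain.

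Depth limits every value given here. Of 8696712 to 10341622 estimated counts per mouse, 134911 to 315436 fell outside the 3 most abundant genes (Rn45s, Lars2 and Mir6236), and the 10 genes together held between 87 and 232.76 of them. The lowest number was found in knock-in mouse 1 and the highest in knock-in mouse 3. Libraries also stood apart: 10 brain markers summed to 2286 to 2682 counts in wild-type mice and to 2468 counts in knock-in mouse 3, but to 46 and 35 counts in knock-in mice 1 and 2. Xist, a transcript of females, ranged from 70.81 to 1505 counts in wild-type mice and was at 1, 0 and 1537 counts in the knock-in mice, and the labels give no sex. As for the markers that define Kupffer cells, Clec4f (6 to 30 counts) and Cd5l (11 to 19 counts) were present in every library, while Vsig4 had 1 to 3 counts and Timd4, a further Kupffer cell marker, 0 or 1.

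The promoters of Marco and Cd5l are shown because these were the 2 members with every knock-in mouse above every wild-type mouse after scaling, beside 6.58% of all genes with a count. Each is the stretch of 250 bases before the RefSeq start in GRCm38.p6, the build of mm10, read 5′ to 3′ on the strand of the gene. It runs over chr1:120505025-120505274 on the minus strand for Marco and over chr3:87357631-87357880 on the plus strand for Cd5l.
Marco: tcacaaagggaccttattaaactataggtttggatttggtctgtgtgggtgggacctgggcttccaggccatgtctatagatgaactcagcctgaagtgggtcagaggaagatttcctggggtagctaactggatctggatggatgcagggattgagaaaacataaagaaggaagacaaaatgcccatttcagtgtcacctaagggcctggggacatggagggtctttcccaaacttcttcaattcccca
Cd5l: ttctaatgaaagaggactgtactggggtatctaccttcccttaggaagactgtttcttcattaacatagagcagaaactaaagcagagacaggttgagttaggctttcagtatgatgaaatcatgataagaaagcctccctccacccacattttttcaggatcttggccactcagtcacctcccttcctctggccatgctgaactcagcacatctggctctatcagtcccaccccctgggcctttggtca
A pair of motifs was searched on both strands of the windows, and no member's window held both. The first, TGACNNNGC, is the core of the antioxidant response element, to which NRF2 binds together with small MAF proteins. The second, GAGGAAGT, is an ETS motif of the type bound by PU.1, the transcription factor that macrophages require. Neither is present in the printed windows of Marco and Cd5l, which says only that these letters are missing there.

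Of the 7 members with a promoter in the RefSeq table, 2 held TGACNNNGC within 250 bases before the start, against 10.2% of all 32851 promoters in the table. These were C1qb and Clec4f, shown with the match in capitals on the strand of the gene, at chr4:136886285-136886313 and chr6:83656159-83656187, both genes lying on the minus strand.
C1qb: aggctggtcaGCGTCGTCAtttacagtaa
Clec4f: ttggatttctGCAGAGTCAgagggaggag
GAGGAAGT was found in 1 of the 7 windows, that of C1qc, at chr4:136893092-136893119, against 2.44% of all promoters. It is shown on the strand of the gene, where it reads as its reverse complement.
C1qc: gacggcagacACTTCCTCattttggcac
The 7 windows had a GC content between 41.6% (Lyz2) and 57.2% (Clec4f), beside a median of 52.4% over all promoters.

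**Figure D1:**
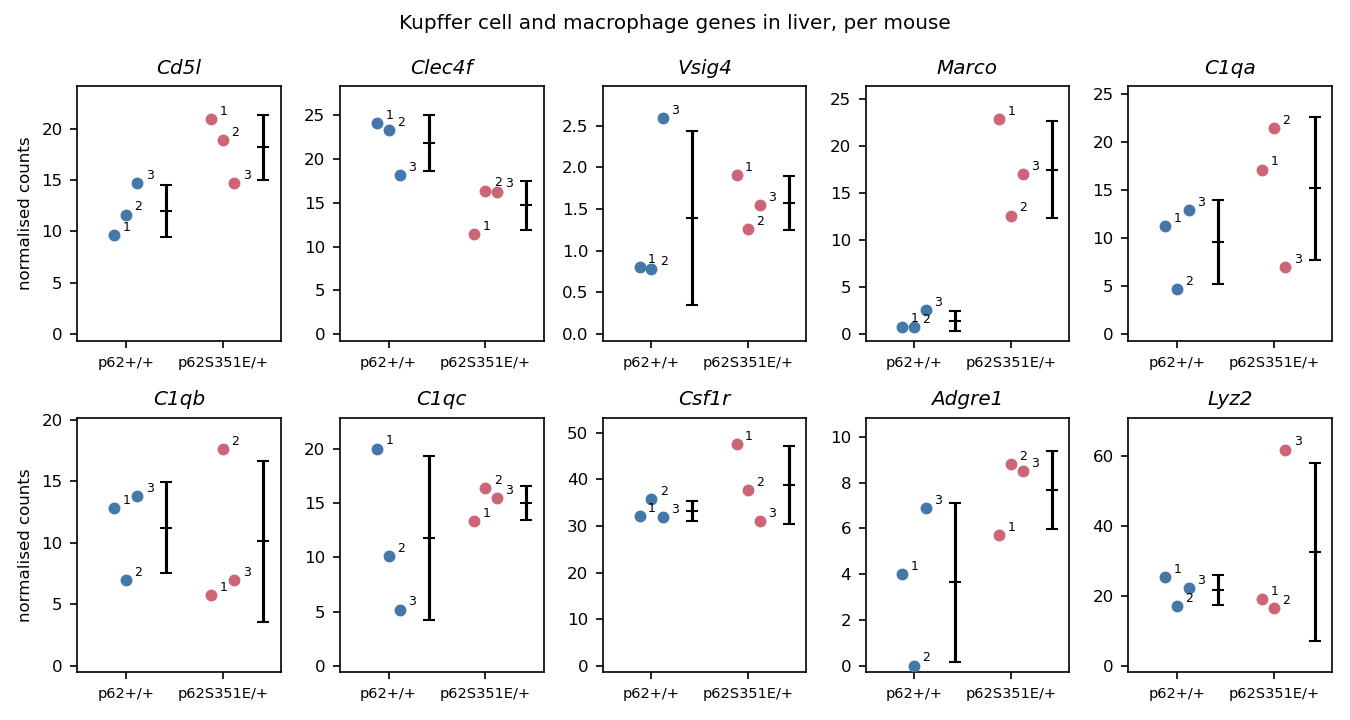
Normalised counts of the 10 genes in each p62+/+ (blue) and p62S351E/+ (red) mouse, with mouse numbers beside the points and the mean ± SD of each group in black. Marco spans 0.776 to 2.59 in the p62+/+ group and 12.6 to 22.9 in the p62S351E/+ group, whereas the groups overlap for 7 of the 10 genes. Of all genes with a count, 6.58% have every p62S351E/+ mouse above every p62+/+ mouse and 11.5% have every one below.

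Of the 4 members largely restricted to Kupffer cells, Marco was called higher in knock-in mice when tested without a filter on low counts. This call did not hold in every alternative, and Clec4f, Cd5l and Vsig4 did not pass the test. Marco, the gene of a class A scavenger receptor that binds bacteria and modified lipoproteins, had raw counts of 1, 1 and 3 in wild-type mice 1, 2 and 3 and of 12, 10 and 22 in knock-in mice 1, 2 and 3. Every knock-in mouse was thus above every wild-type mouse, also before scaling. Normalised counts, that is counts divided by the relative library size with edgeR's TMM factors, were 1.39 ± 1.04 in wild-type and 17.5 ± 5.14 in knock-in mice (SD, n = 3 each). The ratio of the pooled counts, scaled by library size, was 12.4, with an exact 95% interval from 4.95 to 40.2 that covers counting error only. Marco lies on chromosome 1 from 120474538 to 120505024 (GRCm38), no exon of another gene overlaps its exons, and all its counts were whole numbers.

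Marco did not pass the filter on low counts of the main comparison (edgeR's filterByExpr, minimum count 10) and was therefore not among its 5945 genes tested. At this depth it could pass such a filter only through its counts in knock-in mice. When all 16283 genes with a count were tested by edgeR's quasi-likelihood test, its log2 fold change was 3.52 (standard error, SE, 0.55, adjusted p = 0.00579 by Benjamini-Hochberg). In that fit 0.485% of the genes were called higher, that is at an adjusted p below 0.05 with a log2 fold change beyond 1 in size, and Marco was the 1 member among them. With the 3 most abundant genes removed before scaling, Marco passed the filter through its knock-in counts alone, so its log2 fold change of 3.50 there (SE 0.59, adjusted p = 0.0266) is a description and lends no support. That fit called 0.929% of the genes higher and 0.103% lower. DESeq2 gave a log2 fold change of 3.63 with an unadjusted p of 8.37e-05 and no adjusted p. The call did not hold without wild-type mouse 1 (adjusted p = 0.11, edgeR, no filter), without wild-type mouse 2 (0.126), with library size as the only scaling (0.224) or with the replicate number as a block (0.0852), while the log2 fold change stayed between 2.89 and 4.22. With Xist as a covariate it was 3.61 (adjusted p = 0.0246). Without knock-in mouse 3 it was 3.46 (adjusted p = 0.00119), a fit that sets 3 livers with brain transcripts against 2 nearly without them. Among the 4 livers with brain transcripts, Marco had 22 counts in knock-in mouse 3 and 1, 1 and 3 counts in the wild types. This comparison rests on 1 knock-in library, and the part of brain transcripts was not tested.

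Clec4f encodes a C-type lectin that in mice marks Kupffer cells and binds glycans with terminal galactose. Its raw counts were 30, 30 and 21 in wild-type mice and 6, 13 and 21 in knock-in mice, and its normalised counts were 24.1, 23.3 and 18.1 against 11.4, 16.4 and 16.3. All knock-in mice were below all wild-type mice after scaling, by a log2 fold change of -0.55 (SE 0.28) that did not pass the test (adjusted p = 0.408, edgeR over 5945 genes). Of all genes tested, 14.7% had every knock-in mouse below every wild-type mouse. The log2 fold change of Clec4f was below 0 in each of 16 alternatives, from -1.16 to -0.41.

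Cd5l encodes a secreted scavenger protein of tissue macrophages that circulates with IgM. Its raw counts were 12, 15 and 17 in wild-type mice and 11, 15 and 19 in knock-in mice, and its normalised counts were 9.63, 11.6 and 14.68 against 20.9, 18.9 and 14.72. The groups did not overlap, but the highest wild-type mouse and the lowest knock-in mouse were almost level. The log2 fold change of 0.58 (SE 0.32) did not pass the test (adjusted p = 0.423, edgeR), and it was -0.12 with library size as the only scaling. Among the genes tested, 12% had every knock-in mouse above every wild-type mouse.
Vsig4 encodes a complement receptor that captures C3b-coated particles from blood. It had 1, 1 and 3 counts in wild-type mice and 1, 1 and 2 counts in knock-in mice, at or under a floor of 3 counts in every library. The scaled ratio of 1.13 had an exact 95% counting interval from 0.225 to 5.26, so a difference was not detectable at this depth.

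**Figure D2:**
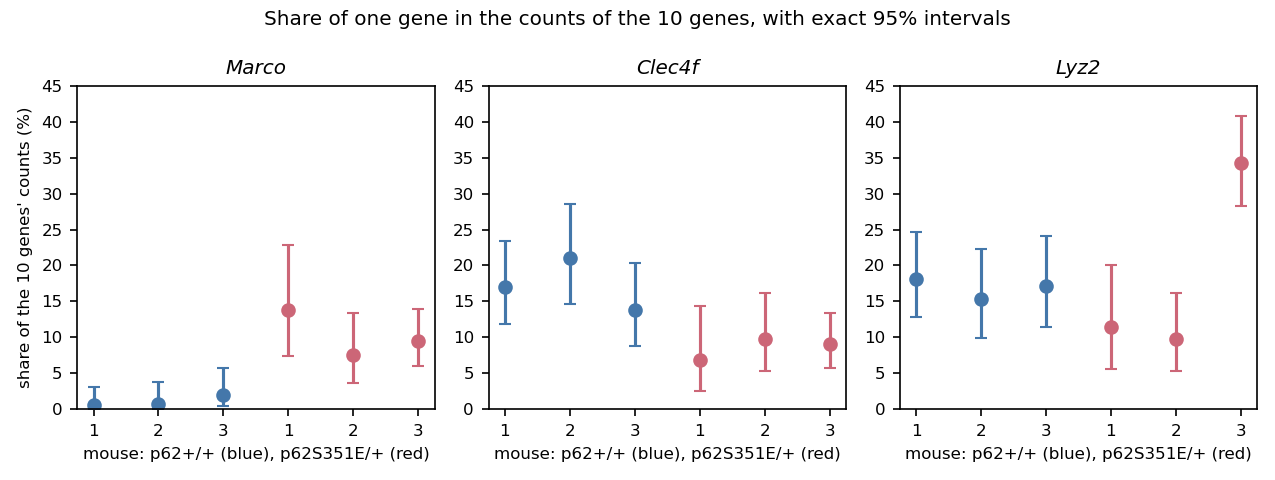
Share of Marco, Clec4f and Lyz2 in the summed raw counts of the 10 genes in each mouse, in percent, with exact 95% binomial intervals for counting error (p62+/+ blue, p62S351E/+ red). Marco took 0.568% to 1.97% in p62+/+ mice and 7.52% to 13.8% in p62S351E/+ mice, and Lyz2 took 34.3% in p62S351E/+ mouse 3.

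Shares within the 10 genes do not depend on how the libraries are scaled. Marco made up 0.568%, 0.699% and 1.97% of the members' counts in wild-type mice and 13.8%, 7.52% and 9.44% in knock-in mice. The upper exact 95% limits in wild-type mice were 3.12%, 3.83% and 5.66%, and the lower limits in knock-in mice were 7.34%, 3.66% and 6.01%. Only the interval of knock-in mouse 2 reached into those of wild-type mice 2 and 3. Clec4f made up 17%, 21% and 13.8% in wild-type mice and 6.9%, 9.77% and 9.01% in knock-in mice, and here the interval of wild-type mouse 2 (14.6% to 28.6%) lay above those of knock-in mice 1 (2.57% to 14.4%) and 3 (5.67% to 13.4%), whereas all other pairs overlapped. Between Marco and Clec4f, Marco held 5 of 86 counts pooled over wild-type mice (5.81%, exact 95% interval 1.91% to 13.05%) and 44 of 84 counts pooled over knock-in mice (52.4%, 41.2% to 63.4%). With 3 mice a group, the smallest two-sided p of an exact permutation test is 0.1, and none was run on these shares.

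C1qa, C1qb and C1qc encode the chains of C1q, the recognition molecule of the classical complement pathway, which macrophages and not hepatocytes supply. The genes lie next to each other on chromosome 4 of GRCm38, within 136880129 to 136898803. C1qa had raw counts of 14, 6 and 15 in wild-type mice and 9, 17 and 9 in knock-in mice. C1qb had 16, 9 and 16 against 3, 14 and 9, and C1qc had 25, 13 and 6 against 7, 13 and 20. The groups overlapped for each chain, and knock-in mouse 2 had the highest normalised count of C1qa and C1qb but not of C1qc. The log2 fold changes were 0.62 for C1qa (SE 0.52, adjusted p = 0.581), -0.14 for C1qb (0.50, 0.911) and 0.36 for C1qc (0.47, 0.715), all from edgeR's quasi-likelihood test. Single mice moved these values, C1qa to between 0.25 (without knock-in mouse 2) and 1.011 (without knock-in mouse 3), C1qb to between -0.77 and 0.13 (without knock-in mice 2 and 3), and C1qc to between 0.013 and 0.97 (without wild-type mice 3 and 1). As a share of the summed C1q counts, C1qc was 36.7% (exact 95% interval 28.1% to 46%) pooled over wild-type mice and 39.6% (30% to 49.8%) pooled over knock-in mice.

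Csf1r, the receptor for macrophage colony-stimulating factor, had the most raw counts of the members in wild-type mice, 40, 46 and 37 in wild-type mice and 25, 30 and 40 in knock-in mice. Its normalised counts were 33.3 ± 2.13 and 38.8 ± 8.35 (SD, n = 3 each). This was a log2 fold change of 0.21 (SE 0.24, adjusted p = 0.668, edgeR). The groups overlapped, and knock-in mouse 1 was highest. Exons of Csf1r overlap those of Hmgxb3 on the opposite strand, and whether the counting used strand is not given in the sources used here, so reads of these genes may not be told apart.
Adgre1, which encodes the F4/80 antigen, had 5, 0 and 8 counts in wild-type mice and 3, 7 and 11 counts in knock-in mice. It did not pass the filter either, and without the filter its log2 fold change was 1.09 (SE 0.74, adjusted p = 0.676, edgeR). Its normalised counts were 4.01, 0 and 6.91 against 5.71, 8.82 and 8.52, and the groups overlapped. Leaving out a mouse moved the log2 fold change to between 0.49 (without wild-type mouse 2) and 1.89 (without wild-type mouse 3).
Lyz2, the lysozyme gene of macrophages, monocytes and neutrophils, had 31.7, 21.92 and 25.71 counts in wild-type mice and 10, 13 and 79.76 counts in knock-in mice. After scaling, knock-in mouse 3 stood at 61.8 normalised counts and the other 5 mice between 16.4 and 25.4. The log2 fold change was 0.61 (SE 0.50, adjusted p = 0.58, edgeR) with all mice and -0.30 (SE 0.33, adjusted p = 0.575) without knock-in mouse 3. Counts of Lyz2 were not whole in 4 libraries. Its paralog Lyz1, with which RSEM can divide reads, had 0 to 6.24 counts per library. Neutrophil markers other than Lcn2 summed to 5 counts in knock-in mouse 3 and to 0 to 2 counts in the other mice, and their part in the Lyz2 value was not tested.

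**Figure D3:**
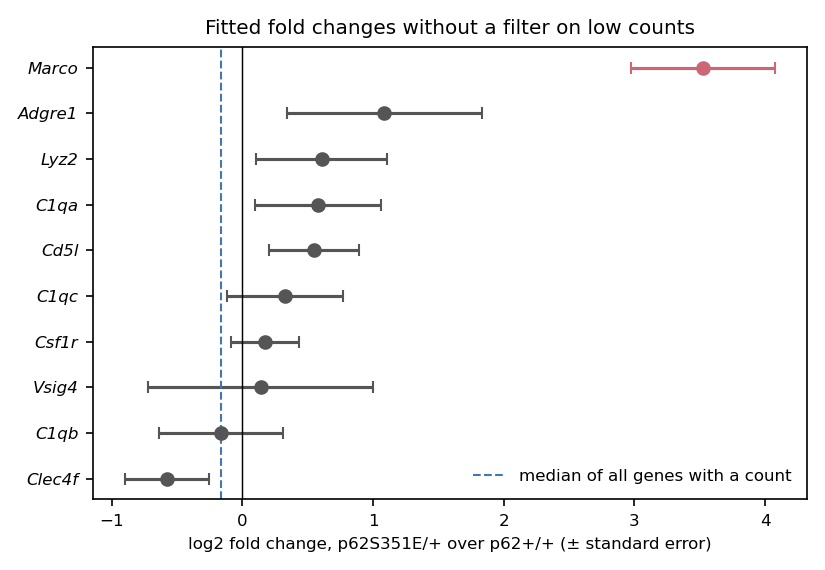
Fitted log2 fold changes (p62S351E/+ over p62+/+) of the 10 genes from edgeR without a filter on low counts, with standard errors, and the median of all 16283 genes with a count as a dashed line at -0.16. Marco, in red, is the member called higher (log2 fold change 3.52), and the others lie between -0.57 for Clec4f and 1.09 for Adgre1.

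Of the 10 members, 7 passed the filter, and 0 of these 7 were called higher or lower by edgeR, with 0 at an unadjusted p below 0.05. Limma-voom called 0 of the same 7, beside 2.05% of its genes called higher and 0.219% lower. DESeq2 called 0 of 10, of which 1 (Csf1r) had an adjusted p, beside 4.28% of the genes with an adjusted p called higher and 0.842% lower. In the main comparison 0.841% of the genes tested were called higher and 0.0841% lower, so 0 of 7 is near the background. The median log2 fold change of the 7 was 0.36, beside -0.03 over all 5945 genes tested. Without a filter the median of all 10 was 0.44, beside -0.16 over all genes with a count. In that fit 1 member was called higher and 0 lower (0.0614% of the genes were called lower).

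**Figure D4:**
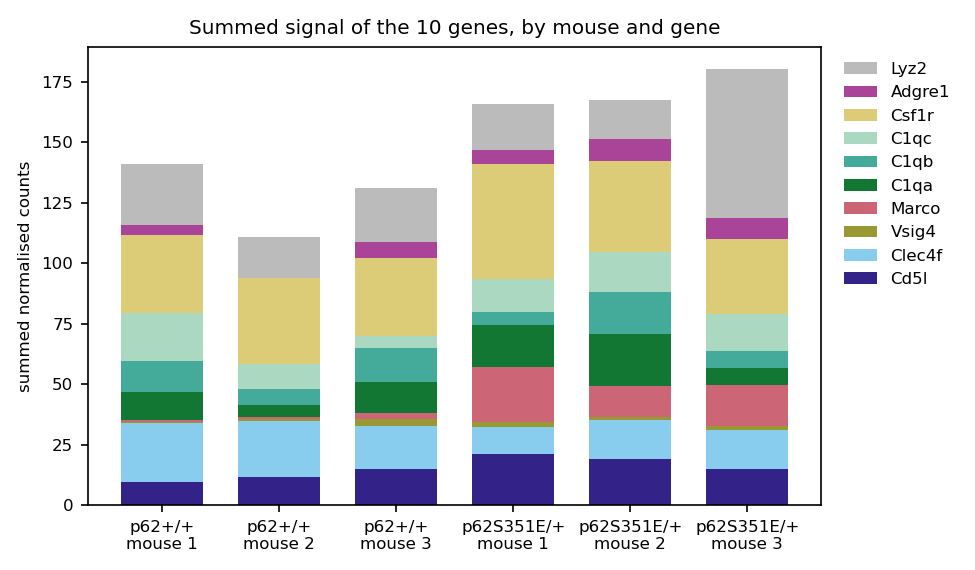
Summed normalised counts of the 10 genes in each mouse, stacked by gene. The sum spans 110.9 to 141 in the p62+/+ group and 165.7 to 180.3 in the p62S351E/+ group.

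The summed normalised signal of the 10 genes was 141, 110.9 and 131 in wild-type mice and 165.7, 167.6 and 180.3 in knock-in mice. All knock-in mice were above all wild-type mice, with means of 127.7 ± 15.3 and 171.2 ± 7.96 normalised counts (SD, n = 3 each), a ratio of 1.34. This ratio depended on scaling, because with library size only its log2 went from 0.42 to -0.21, and the median of all genes went from -0.03 to -0.68. Per 10000 counts outside the 3 most abundant genes, the members held 5.91, 4.77 and 5.59 counts in wild-type mice and 6.45, 5.74 and 7.38 counts in knock-in mice, and on this scale knock-in mouse 2 fell within the wild-type range.

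The 4 members restricted to Kupffer cells summed to 36.6 ± 1.35 normalised counts in wild-type mice and 52 ± 4.49 in knock-in mice, and the 6 shared members to 91.1 ± 15.7 and 119.2 ± 11.1 (SD, n = 3 each). Without Marco the other 3 restricted members, Cd5l, Clec4f and Vsig4, summed to 35.2 ± 0.626 and 34.4 ± 2.01 normalised counts, with overlapping groups, so the higher sum of the 4 lay in Marco. The restricted members took 28.7% of the members' counts pooled over wild-type mice (exact 95% interval 24.7% to 33%) and 29.4% pooled over knock-in mice (25.2% to 33.8%). Of all members, the 9 other than Marco summed to 140.2, 110.2 and 128.4 in wild-type mice and to 142.8, 155 and 163.3 in knock-in mice. The log2 ratio of the means was then 0.28, and knock-in mouse 1 was close to wild-type mouse 1. The 9 other than Lyz2 summed to 115.6, 93.9 and 108.8 in wild-type mice and to 146.6, 151.2 and 118.5 in knock-in mice. The log2 ratio of the means was 0.39 for these 9, and knock-in mouse 3 was close to wild-type mouse 1. In liver RNA, a change in the number of macrophages and a change in transcripts per macrophage cannot be told apart.

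Levels of different genes were compared per kilobase of exon, separately in each genotype because the order differed. In wild-type mice the means were 16.4 normalised counts per kb for Lyz2, 10.31 for C1qb, 9.79 for C1qc, 9.25 for C1qa, 8.84 for Clec4f, 6.81 for Csf1r, 5.89 for Cd5l, 1.12 for Adgre1, 0.971 for Vsig4 and 0.722 for Marco. The ranges of neighbours in this order overlapped except between Lyz2 and C1qb, Clec4f and Csf1r, and Cd5l and Adgre1. In knock-in mice the means were 24.6 normalised counts per kb for Lyz2, 14.6 for C1qa, 12.5 for C1qc, 9.29 for C1qb, 9.09 for Marco, 8.93 for Cd5l, 7.94 for Csf1r, 5.95 for Clec4f, 2.37 for Adgre1 and 1.097 for Vsig4. Here neighbours overlapped except between Clec4f and Adgre1, and Adgre1 and Vsig4. Marco thus had the lowest mean in wild-type mice, within the range of Vsig4 and Adgre1, and in knock-in mice a mean between those of C1qb and Cd5l.

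Other genes of Kupffer cells did not pass the test. Of 12 further Kupffer cell genes, 3 had enough counts to be tested and 0 were called by edgeR, DESeq2 or limma-voom, with 1 at an unadjusted p below 0.05. This was Hmox1, which encodes the heme-degrading enzyme heme oxygenase 1 and is a known NRF2 target. Hmox1 rested on 7.34 ± 1.74 and 13.6 ± 4.61 normalised counts, a log2 fold change of 0.91 (SE 0.39, adjusted p = 0.338, edgeR). Slc40a1, which encodes the iron exporter ferroportin, had a log2 fold change of 0.24 (SE 0.32, adjusted p = 0.719), and Nr1h3, which encodes the nuclear receptor LXRα, 0.21 (SE 0.39, adjusted p = 0.816). Cd209f was at 0 counts in every library. The summed normalised counts of the 12 genes had a ratio of means of 1.15 between knock-in and wild-type mice, with overlapping groups.

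Of 20 pan-macrophage genes 10 were tested and 0 were called by any of these tools, with 1 at an unadjusted p below 0.05, Grn. Their median log2 fold change was 0.15, with 5 above and 5 below 0 and a range from -0.55 to 1.25. The summed normalised counts of the 20 genes had a ratio of means of 1.06, with overlapping groups, and Psap and Ctsb made up most of this sum. Among the most abundant of them, the lysosomal genes Psap and Ctsb had log2 fold changes of -0.09 (SE 0.21, adjusted p = 0.858) and -0.08 (SE 0.22, adjusted p = 0.879), and Grn, which encodes progranulin, had 0.57 (SE 0.24, adjusted p = 0.327, edgeR). Of 11 genes for CSF1 receptor ligands and macrophage transcription factors 6 were tested, with a median of -0.05 and 0 calls by the 3 tools or at an unadjusted p below 0.05. In this list Cebpa, Cebpb and Zeb2 had the most counts, and hepatocytes express Cebpa and Cebpb too.

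The partners of C1q are made largely by hepatocytes. Of 11 genes for C1 complex partners and C1q receptors all 11 were tested and 0 were called by the 3 tools, with 3 at an unadjusted p below 0.05 and a median log2 fold change at 0.21. C3, the central component of complement, had a log2 fold change of 0.82 (SE 0.28, adjusted p = 0.255), and C4b, which C1 cleaves, 0.73 (SE 0.25, adjusted p = 0.26, edgeR).

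Of 8 genes of lipid-associated macrophages 5 were tested and 0 were called, with 1 at an unadjusted p below 0.05 and a median of -0.65. Lpl, Spp1 and Gpnmb had log2 fold changes of 0.91, -0.65 and -1.37, with adjusted p values of 0.224, 0.65 and 0.47 (edgeR). Gpnmb rested on 56 counts in wild-type mouse 1 against 10 to 12 in the other wild-type mice.

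Transcripts of activated or newly recruited myeloid cells were near the limit of detection. The 12 inflammatory cytokine and chemokine genes, among them Tnf, Il1b and Il6, summed to 6 to 11 raw counts in wild-type mice and 12 to 15 raw counts in knock-in mice. After scaling these sums were 4.81 to 8.54 and 9.3 to 28.6 normalised counts, and the difference was not tested. Of these genes 0 passed the filter. Il6, Cxcl2 and Il10 were at 0 in all libraries. Over all mice, Tgfb1 had the most raw counts of the 12 genes (30), while Tnf had 3 and Il1b 1. The 7 monocyte markers summed to 9 to 23 counts and 0 to 19 counts, with Ly6c2 and Chil3 at 0 in all libraries. The 7 lymphocyte markers found in the table did not exceed 4 counts in any mouse. The 9 neutrophil markers summed to 2 to 5 counts in wild-type mice and to 5, 41 and 13 counts in knock-in mice, of which Lcn2, a gene that hepatocytes also express, made up 5, 39 and 8. None of these markers passed the filter. Without a filter edgeR called 0 of the 9 cytokine, 5 monocyte, 6 neutrophil and 5 lymphocyte genes with a count, with 1 at an unadjusted p below 0.05, Lcn2 (log2 fold change 3.40, SE 0.82, adjusted p = 0.168).

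**Figure D5:**
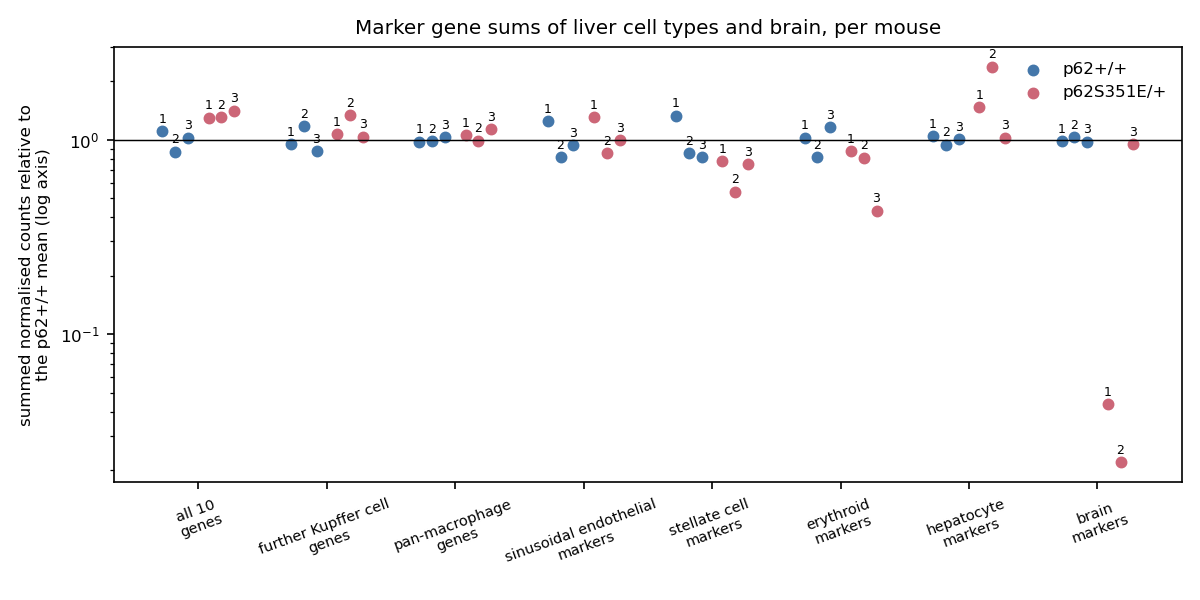
Summed normalised counts of marker lists in each mouse relative to the p62+/+ mean of the list (log axis), with mouse numbers beside the points (p62+/+ blue, p62S351E/+ red). The ratio of the means is 1.34 for the 10 macrophage genes, 1.15 for the further Kupffer cell genes and 1.06 for the pan-macrophage genes. It is 1.05 for the sinusoidal endothelial markers, and the brain markers are nearly absent from p62S351E/+ mice 1 and 2.

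Microglia of the brain also express C1q, Csf1r and Adgre1, and the brain transcripts in 4 of the libraries are therefore set beside the shared members. The microglia markers Tmem119, P2ry12 and P2ry13 together had 12, 6 and 13 counts in wild-type mice and 0, 0 and 1 counts in knock-in mice, including mouse 3. All 9 microglia markers, of which Sall1 made up most, summed to 61 to 63 raw counts in wild-type mice and to 23 to 40 raw counts in knock-in mice. After scaling the sums were 48.1 to 54.4 and 31 to 49.1 normalised counts, with overlapping groups. Sall1 alone had a log2 fold change of -0.04 (SE 0.28, adjusted p = 0.959, edgeR). It stood at 33.7 to 39.6 normalised counts in wild-type mice and at 40, 42.8 and 23.2 in knock-in mice 1, 2 and 3. Sall1 thus did not follow the brain markers, and the sum of all 9 is no measure of microglia in these libraries. In knock-in mice 1 and 2, with 46 and 35 brain-marker counts, the 6 shared members summed to 108.5 and 118.4 normalised counts, beside 74.5 to 105.7 in wild-type mice. The part of brain transcripts in the wild-type values of the shared members was not tested.

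Markers of other liver cells were compared as sums of normalised counts. Sinusoidal endothelial markers, the list most like Kupffer cells in location, had a ratio of means of 1.05 between knock-in and wild-type mice, with overlapping groups. Stellate cell markers had a ratio of 0.688, and here every knock-in mouse was below every wild-type mouse (122.2 to 175.2 against 184 to 300.1). Erythroid markers had a ratio of 0.705 and hepatocyte markers of 1.62, both with overlapping groups, and the hepatocyte sum was highest in knock-in mouse 2. Of these lists, edgeR tested 7 endothelial, 5 stellate, 6 erythroid and 8 hepatocyte genes and called 0, with 0, 2, 0 and 2 at an unadjusted p below 0.05. Without a filter edgeR called 1 stellate gene lower, Col3a1 (log2 fold change -1.96, SE 0.35, adjusted p = 0.0188), which encodes a fibrillar collagen. DESeq2 and limma-voom, which called more of all genes than edgeR did, each called 1 stellate and 1 hepatocyte gene. The difference between the macrophage sum and these sums was not tested.

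The genes whose log2 normalised counts followed the summed member signal most closely over the 6 mice were Rpl28 (Pearson r = 0.975), Sf1 (0.967), Ppp1r3c (0.967), Srrm2 (0.957) and Nbr1 (0.945), among 2504 genes with at least 20 normalised counts on average. These values rest on 6 mice that share the scaling and the genotype, and are given as a description.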

How the data were processed

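Total RNA of P19 livers was depleted of ribosomal RNA and sequenced as 75-base single-end reads. The authors trimmed reads with Trim Galore, mapped them to mm10 with STAR and ran RSEM to estimate reads per gene. The values deposited are RSEM's expected counts, not normalised. Versions, annotation and use of strand are not given in the sources used here. Each column matched a sample label.

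Counts were rounded and tested in R 4.3.3 with edgeR 4.0.16 (filterByExpr, minimum count 10, TMM, robust quasi-likelihood with legacy set to FALSE) in place of the study's DESeq2, with Benjamini-Hochberg adjustment over 5945 genes. Calls needed an adjusted p below 0.05 and a log2 fold change beyond 1 in size. Standard errors were derived from the fold change and F statistic. To obtain normalised counts, each library was divided by its TMM-scaled size, centred on the geometric mean of the 6 sizes. DESeq2 1.42.0, limma 3.58.1 (voom), other scalings, filters and thresholds, the replicate block, an Xist covariate and leaving out each mouse were alternatives. The Xist covariate and the fits that combine no filter with another choice were chosen after seeing the data. Intervals are exact (Clopper-Pearson, scipy 1.17.1) and cover counting error only. Positions and exon lengths are from GENCODE M21 (GRCm38), and promoters from RefSeq (GRCm38.p6). The tests were checked on simulated counts in which only genes with higher mean counts than Marco were changed. The edgeR fit without a filter was not part of this check.

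The members, lists and tests were chosen with earlier results of these data known. Named from each further list were called genes and the 3 tested genes with the highest mean, and after their values were seen, single genes at 0 or with unusual counts. A gene that this rule names is not reported here. The labels name separate mice.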

Additional observations from a re-analysis of the deposited data

How the results depend on the processing

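Depth set the limit: 3 of the 10 genes did not pass the filter, and Marco was called higher in some but not all of the fits that tested it. The number of members called higher was 1, Marco, in place of 0 with the 3 abundant genes removed and without a filter. It was also 1, Marco, without p62+/+ mouse 3 and without p62S351E/+ mouse 2, and 0 with any other mouse left out. In these fits with 1 call, except the one without a filter, Marco passed the filter through its knock-in counts alone. Its calls there are a description and lend no support. Without p62S351E/+ mouse 1 or 3 Marco did not pass the filter and was not tested. With no filter it was called in both cases (adjusted p = 0.0308 and 0.00119, edgeR). It was not called without p62+/+ mouse 1 or 2 (0.11 and 0.126, edgeR, no filter). In all fits 0 members were called lower. The median log2 fold change of the members tested (0.36) was -0.29 with library size only, where that of all genes was -0.68, 0.045 with the Xist covariate, and 0.28 to 0.60 with a mouse left out. The log2 ratio of the summed signal (0.42) was -0.21 with library size only, 0.28 without Marco, and 0.34 to 0.51 with a mouse left out. The log2 fold change changed sign with library size only for Cd5l (-0.12), C1qa (-0.18), C1qc (-0.29), Csf1r (-0.52) and Vsig4 (-0.45, no filter), with the Xist covariate for C1qa (-0.16), and with at least 10 counts in every library for Csf1r (-0.057). With a mouse left out it changed sign for C1qb (0.04 without p62+/+ mouse 3, 0.10 without p62S351E/+ mouse 1 and 0.13 without p62S351E/+ mouse 3, range -0.77 to 0.13), Lyz2 (-0.30 without p62S351E/+ mouse 3, range -0.30 to 0.94) and Vsig4 (-0.11 and -0.13 without p62+/+ mice 1 and 2), and none of these members was called. Over all genes, 50 were called higher and 5 lower. The higher and lower counts were 122 and 13 with limma-voom, 12 and 2 with library size only, 79 and 10 without a filter, 27 and 2 with the Xist covariate, and 99 and 9 at an adjusted p below 0.1. The lower count was 12 with DESeq2, 8 with the legacy quasi-likelihood method and 29 with at least 10 counts in every library. With a mouse left out 16 to 333 genes were higher and 1 to 975 lower, the highest without p62S351E/+ mouse 3, which held brain transcripts as all p62+/+ mice did. The replicate numbers only name the mice, and same-numbered mice had correlations of 0.0713, -0.0853 and 0.000353 in their deviations. With the replicate block 18 genes were higher and 1 lower, and Marco (no filter) had a log2 fold change of 3.54 with an adjusted p of 0.0852 by edgeR. The causes of these changes were not tested.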
